A study of Mus musculus with 36 samples.

Results

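The comparison described here sets the lungs of mice given 54 µg of tube-shaped titanium dioxide (TiO2) nanoparticles against those of control mice, at day 1 after exposure. Its members are the arrays labelled day 1 with a dose of 54 µg or 0 µg, which make up 9 of the 36 arrays and 7 of the 29 mice of the series. The 54 µg group held 3 animals on 4 arrays and the control group 4 animals on 5 arrays. Animal 1 of each group was hybridised on 2 arrays, which were averaged. The mice were female C57BL/6, 5 to 7 weeks old at the start, with no transgene or gene deletion named in the labels. A single volume of 40 µl was instilled into the trachea, with the particles for the treated group and at a dose of 0 µg for the controls, and lung was collected 24 h later. The other mice received 18 or 162 µg or were collected at day 28. RNA came from random sections of whole frozen lung, so fewer cells of a type and less RNA per cell cannot be told apart. Each array measured lung RNA in Cy5 against a universal mouse reference RNA from 11 cell lines in Cy3, and a level is given as log2(Cy5/Cy3). The study asked how lung transcripts respond to these particles over dose and time, and this contrast asks what the middle dose did within the first day.

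Instilled particles settle on the airway and alveolar surface, where resident macrophages and epithelial cells meet them first. In the mouse lung an acute phase response can be produced locally, with serum amyloid A proteins as its best known part. Chemokines made by the same cells draw neutrophils, monocytes and dendritic cells into the tissue, and NF-kB and C/EBP transcription factors are known activators of many of these genes.

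The arrays were alike in quality, with 51.4 to 61.9% of probes well above background in Cy5 and a median raw Cy5 intensity of 106 to 132. Across genes, which are not independent replicates, r between animals was 0.860 to 0.959 among the controls and 0.848 to 0.977 among the treated. Lung markers were present in every animal: Sftpc, the surfactant protein C gene of type II cells, was at 7.79 to 8.45 in controls and 7.62 to 8.38 in treated animals, and Scgb1a1 of club cells at 7.04 to 7.32 and 6.66 to 7.22. Transcripts of other tissues split the arrays in another way. Averaged over a list of skeletal muscle genes, the log2 Cy5 intensity was 11.0 to 14.2 on 5 of the 9 arrays and 7.39 to 8.26 on the other 4, and the 5 are called muscle arrays below. They were the slide 4 array of control animal 1, the arrays of control animals 2, 3 and 4, and the array of treated animal 2. Thus 4 of 4 control animals had a muscle array, against 1 of 3 treated animals. Squamous epithelium transcripts also stood high, at 12.0 to 12.4, on the arrays of treated animal 2 and control animal 4 and on the slide 4 array of control animal 1. Transcripts of liver, which was also collected from these mice, stayed at 6.85 to 7.69 on all 9 arrays. Without the muscle arrays the comparison rests on 1 array of control animal 1 against treated animals 1 and 3, and its values are given beside those of the 12 called genes and of the main others.

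**Figure D1:**
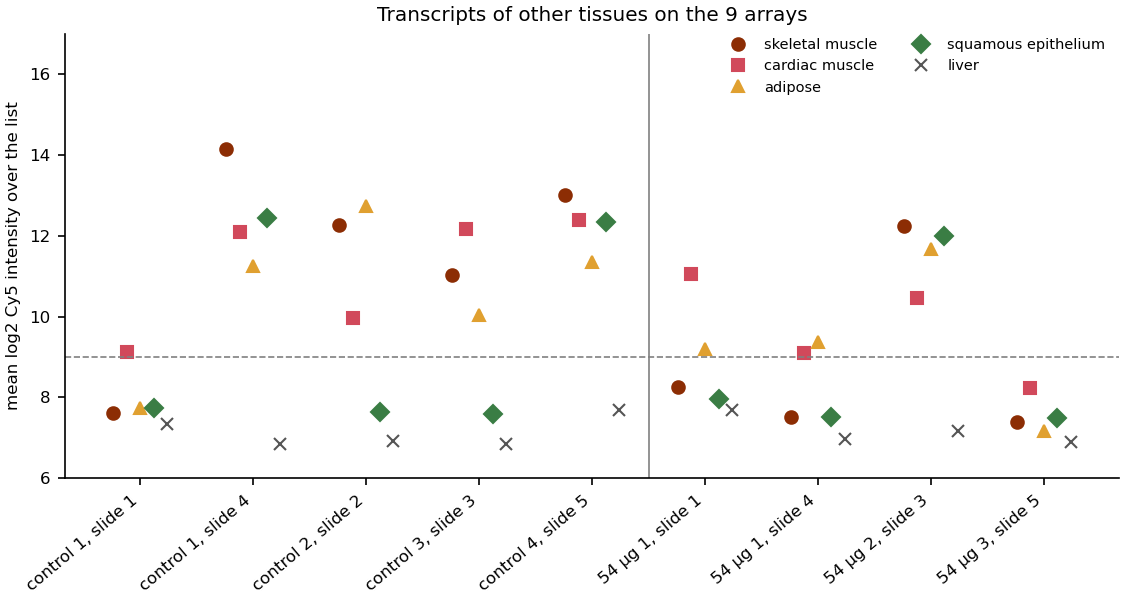
Mean log2 Cy5 intensity (y axis) over lists of transcripts of skeletal muscle, cardiac muscle, adipose tissue, squamous epithelium and liver on each of the 9 arrays (x axis, control arrays left of the vertical line); the dashed line is the level of 9 above which an array was called a muscle array. The skeletal muscle list lies above it on 4 of 5 control arrays and on 1 of 4 treated arrays.

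Of 23256 genes tested with limma, 12 passed an adjusted p of 0.05 (Benjamini-Hochberg over all genes), which is 0.0516% of them, and all 12 were higher after 54 µg. They were the acute phase genes Saa3, Saa1, Saa2, Lcn2 and Hpx, the chemokines Cxcl5 and Ccl17, the protease inhibitor Timp1, the surface protein Ly6i and the enzymes or enzyme subunits Noxo1, Il4i1 and Ch25h. In each of the 12 all 3 treated animals lay above all 4 controls, which describes the call on these same animals and is no separate support. Over all genes, 5.3% separated in that way and 3.75% separated with the treated animals below. At an unadjusted p under 0.05, 5.23% of genes were higher and 2.37% lower. Over all genes, 11664 of 23256 had a value above 0, and the median change was 0.000636 on the log2 scale. The genes just outside the threshold were Ly6f, Ccl7 and Relb, with adjusted p-values of 0.0818, 0.0920 and 0.0920. The count was uneven over animals: it was 7 without control animal 1, 7 without control animal 2, 6 without control animal 4 and 2 without treated animal 3. It was 9 or 10 without any 1 of the others. The spread behind these calls came from a fit of all 29 animals of the series. With only the 7 animals of this comparison in the fit, limma called 0 genes.

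**Figure D2:**
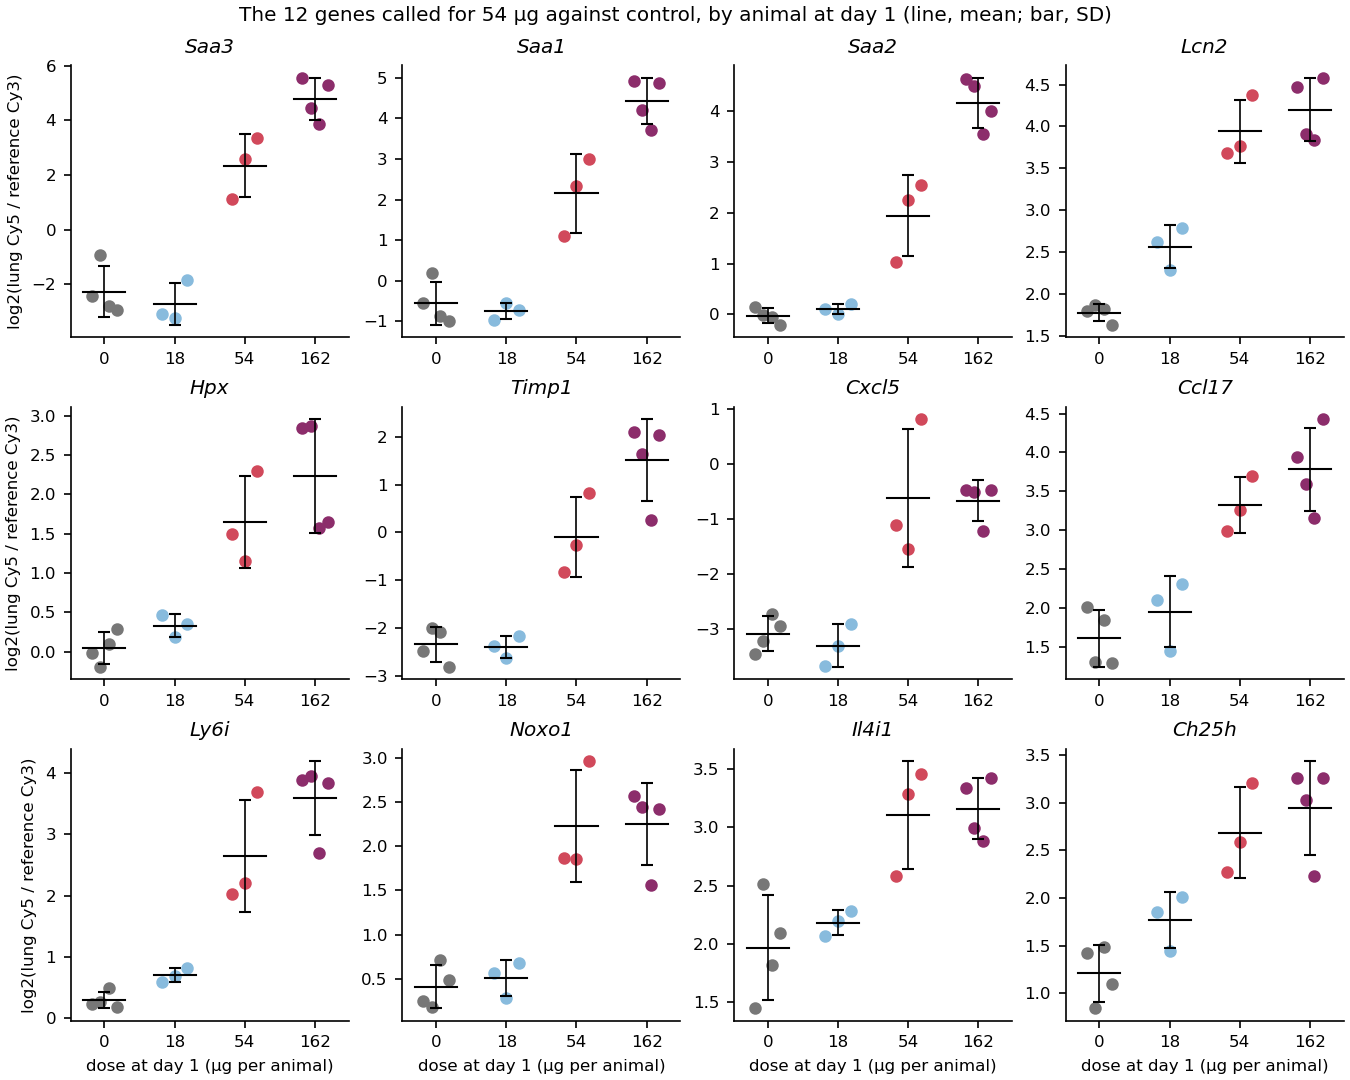
Log2(lung Cy5/reference Cy3) of the 12 called genes (y axis, own scale in each panel) in every animal at day 1 by dose in µg (x axis); points are animals, the horizontal line the group mean and the bar the SD. In each panel the 3 animals at 54 µg lie above the 4 controls.

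The 3 serum amyloid A genes and Lcn2 had the smallest adjusted p-values of the 12, and their promoters show how near relatives Saa1 and Saa2 are. The windows below run from 250 bases before to 50 bases after the RefSeq start site on GRCm38.p6 and are written along the gene's strand. Capitals mark matches to TTNNGNAA, a loose C/EBP motif searched on both strands. Saa1 lies at chr7:46742931-46743230 on the minus strand, Saa2 at chr7:46751583-46751882 on the plus strand, Saa3 at chr7:46715627-46715926 on the minus strand and Lcn2 at chr2:32387690-32387989 on the minus strand.
Saa1: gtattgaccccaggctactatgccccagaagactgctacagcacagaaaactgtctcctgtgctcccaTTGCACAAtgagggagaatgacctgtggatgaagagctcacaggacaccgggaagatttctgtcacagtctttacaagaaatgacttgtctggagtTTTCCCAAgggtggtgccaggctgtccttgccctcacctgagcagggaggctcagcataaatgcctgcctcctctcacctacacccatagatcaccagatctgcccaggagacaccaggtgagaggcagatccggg
Saa2: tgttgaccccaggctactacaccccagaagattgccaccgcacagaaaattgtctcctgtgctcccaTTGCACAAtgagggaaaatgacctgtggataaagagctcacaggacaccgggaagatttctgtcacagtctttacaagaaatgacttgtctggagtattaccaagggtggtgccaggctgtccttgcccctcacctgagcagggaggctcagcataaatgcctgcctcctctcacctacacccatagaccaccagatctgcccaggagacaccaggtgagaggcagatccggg
Saa3: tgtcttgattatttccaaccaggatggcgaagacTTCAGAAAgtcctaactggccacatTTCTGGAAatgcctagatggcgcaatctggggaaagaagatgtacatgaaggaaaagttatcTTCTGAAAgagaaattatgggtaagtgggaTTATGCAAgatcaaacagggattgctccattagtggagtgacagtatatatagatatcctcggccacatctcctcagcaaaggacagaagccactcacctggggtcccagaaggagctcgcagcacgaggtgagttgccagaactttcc
Lcn2: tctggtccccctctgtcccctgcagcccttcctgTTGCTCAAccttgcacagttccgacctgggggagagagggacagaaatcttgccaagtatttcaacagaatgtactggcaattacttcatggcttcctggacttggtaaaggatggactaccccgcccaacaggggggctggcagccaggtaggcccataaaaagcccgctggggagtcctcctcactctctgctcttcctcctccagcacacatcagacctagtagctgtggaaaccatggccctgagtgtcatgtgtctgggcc

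The Saa1 and Saa2 windows were identical at 287 of 300 bases (95.7%) once aligned end to end with gaps allowed. A C/EBP match stood in 8 of the 10 called genes that have a window, against 40.7% of all 32851 windows. Saa3 held 4 such matches, beginning at -216, -191, -129 and -99 from the start site. The other motifs were rarer: a STAT motif, TTCNNNGAA, was in the window of Ccl17 and in 8.3% of all windows, and TATAAA was in that of Ch25h and in 8.32%. Neither a kappa B match (8.46% of all windows) nor TGANTCA, the AP-1 motif (7.81%), was found in the 10. The window of Noxo1 held none of the 5 motifs, and Ly6i and Cxcl5 have no window in the table. These matches are letters in a window and describe no binding.

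Saa3, the serum amyloid A gene that mouse macrophages and epithelia make outside the liver, had the largest rise. Its log2 ratio was -2.43, -0.92, -2.81 and -2.93 in control animals 1 to 4 and 1.11, 2.57 and 3.35 in treated animals 1 to 3. Control animal 2 was the highest of the controls, and treated animal 1 the lowest of the treated. The difference of 4.62 (SE 0.61, adjusted p 0.00113) is 24.5-fold. Saa1, which codes for a lipid-carrying protein of acute phase serum, was at -0.55, 0.20, -0.86 and -0.996 in controls and at 1.11, 2.34 and 3.01 in treated animals. It rose by 2.71 (SE 0.41, adjusted p 0.00453), with the animals of each group in the same order as for Saa3. Saa2, its near copy, was at 0.14, -0.005, -0.04 and -0.21 in controls, where no array was well above background, and at 1.04, 2.25 and 2.55 after 54 µg. The gene was tested only because of its signal in groups given 54 or 162 µg. The rise was at least 3.72-fold against the background level (measured difference 1.97, SE 0.25, adjusted p 0.000764), and the scanner's processed signals gave a difference of 4.76 (adjusted p 0.00220). Because the 2 genes are so alike, part of the signal of either probe may come from the other gene, and their separate levels are uncertain. Without treated animal 3 the adjusted p was 0.0394 for Saa3, 0.0227 for Saa2 and 0.149 for Saa1. Without the muscle arrays the differences were 5.39 for Saa3 (adjusted p 0.0447), 2.52 for Saa1 and 1.63 for Saa2 (both 0.458).

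Lcn2 encodes lipocalin-2, which binds bacterial siderophores and so withholds iron. It stood at 1.80, 1.87, 1.82 and 1.63 in controls and at 3.68, 3.77 and 4.38 in treated animals. The controls lay within a narrow band (SD 0.10), and the rise of 2.16 (SE 0.32, adjusted p 0.00381) is 4.47-fold. Hpx encodes hemopexin, a plasma protein that binds free heme. Its level was -0.03, -0.19, 0.09 and 0.29 in controls against 1.502, 1.15 and 2.30 after 54 µg, a rise of 1.61 (SE 0.27, adjusted p 0.0158). Both genes were highest in treated animal 3, without which the adjusted p was 0.113 for Lcn2 and 0.433 for Hpx. Hpx also missed the threshold without control animal 1 (0.0624) and without control animal 2 (0.0778). Without the muscle arrays the differences were 1.76 (adjusted p 0.239) and 1.86 (0.331).

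Across the acute phase list, 22 of 25 genes were tested. The 5 above rose, and 14 had an unadjusted p under 0.05 with a higher value, against 5.23% of all genes. The groups were separated by 11, against 5.3% of all genes, and the median change was 0.76. Among members that did not pass the adjusted threshold, Serpina3n, a protease inhibitor of acute phase plasma, differed by 1.19, and the plasma proteins Itih4 and Cp by 1.05 and 1.04. Hp, the hemoglobin-binding haptoglobin, differed by 0.40. The fibrinogen chains Fga and Fgb were at -0.10 and -0.04 and the iron regulator Hamp at -1.06, none of which passed. These members beside the called ones were picked after their values were seen. The median of the list's levels in an animal was 0.39 to 0.71 in the controls and 1.11, 1.45 and 2.18 in treated animals 1 to 3, so the groups did not overlap.

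**Figure D3:**
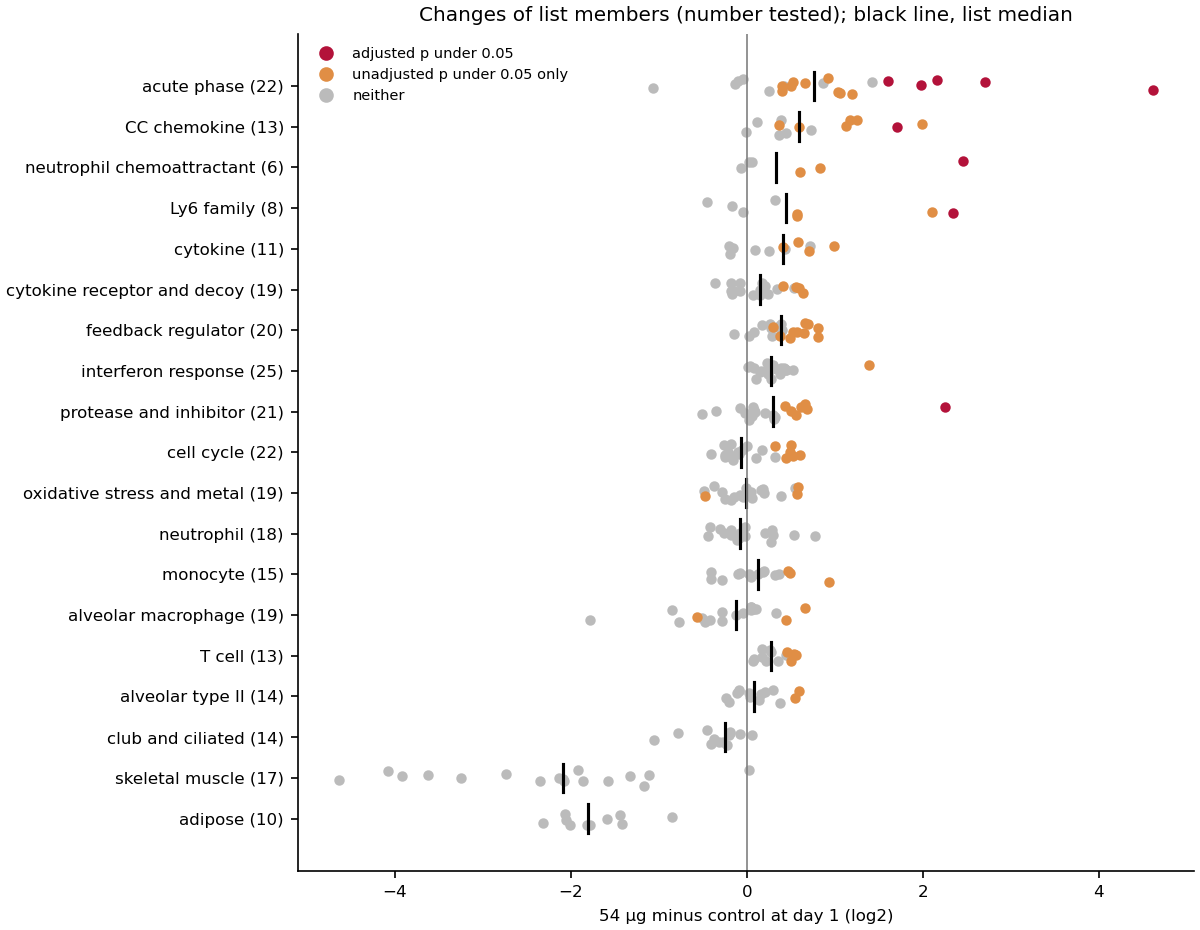
Change on the log2 scale (x axis, 54 µg minus control at day 1) of each tested member of 19 gene lists (y axis, number tested in parentheses); colour gives the test result and the black line the list median. The acute phase median is 0.76 and the neutrophil marker median -0.08, and the skeletal muscle and adipose medians of -2.09 and -1.80 come with no member past the adjusted threshold.

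Among the ligands, Cxcl5, which attracts neutrophils through the receptor CXCR2 and is made by alveolar epithelium, rose. Its level was -3.46, -3.21, -2.72 and -2.93 in controls, where 2 of 5 arrays were well above background, and -1.11, -1.55 and 0.80 in treated animals. Treated animal 3 stood well above the other two. The difference of 2.46 (SE 0.47, adjusted p 0.0472) passed by a small margin, and without treated animal 3 it was 1.75 (adjusted p 0.793). It was 4.49 with the scanner's processed signals (adjusted p 0.0757) and 3.47 without the muscle arrays (0.0791). Leaving out any 1 of the other animals except treated animal 2 also took it over the threshold, with adjusted p-values of 0.0605 to 0.195. Cxcl1, a second CXCR2 ligand, was at -3.80 to -3.59 in controls, with no array well above background, and at -3.09, -2.53 and -3.03 in treated animals. This is at least 1.76-fold, with an adjusted p of 0.252. Of 6 tested neutrophil chemoattractants, 1 rose and 3 had an unadjusted p under 0.05, all higher, against 5.23% of all genes. The median change was 0.33. That median ran from 0.02 with genes above background in all 7 animals to 1.33 from the scanner's processed signals. Cxcl2 was not tested because it did not pass the filter.

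Ccl17, a ligand of CCR4 made by dendritic cells, stood at 2.01, 1.31, 1.84 and 1.29 in controls and at 2.99, 3.27 and 3.70 in treated animals. The rise of 1.71 (SE 0.31, adjusted p 0.0290) was larger than the SD within either group, 0.37 and 0.36. Leaving out any 1 animal except control animal 1 ended the call, with adjusted p-values of 0.0506 to 0.625, and without the muscle arrays the difference was 0.73 (adjusted p 0.701). The monocyte chemoattractants did not pass: Ccl7 was at -4.37 to -3.82 in controls and at -2.78, -1.69 and -2.07 in treated animals (1.98, SE 0.41, adjusted p 0.0920). Ccl2 was at -4.63 to -3.60 and at -3.55, -2.81 and -3.02 (1.12, SE 0.38, adjusted p 0.519). Leaving out the muscle arrays gave 2.25 for Ccl7 (adjusted p 0.475) and 1.31 for Ccl2 (0.644). The groups did not overlap for either gene, although for Ccl2 treated animal 1 lay next to control animal 2. Of 13 CC chemokines tested, 1 rose and 7 had an unadjusted p under 0.05, all higher, against 5.23% of all genes. The median was 0.60.

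The remaining signalling lists held no called member. Of 20 tested NF-kB and STAT feedback regulators, 19 had a value above 0 and the median was 0.38. An unadjusted p under 0.05 was reached by 10, all higher, and 8 separated the groups, against 5.23% and 5.3% of all genes. Relb, an NF-kB subunit of the noncanonical pathway, was at -0.46, -0.63, -0.43 and -0.57 in controls and at 0.20, 0.26 and 0.39 after 54 µg (0.80, SE 0.17, adjusted p 0.0920). It was the most even of the regulators, with an SD of 0.10 in each group. Icam1, the endothelial and epithelial adhesion molecule, was at 2.35, 1.47, 2.32 and 2.32 in controls and at 2.84, 2.47 and 3.45 in treated animals (0.81, SE 0.33, adjusted p 0.610). Without the muscle arrays these differences were 0.45 for Relb (adjusted p 0.644) and 0.56 for Icam1 (0.704). Centring each array on its median moved the median of all genes to 0.23 and that of this list to 0.71.

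Of 11 cytokines tested, 4 had an unadjusted p under 0.05, all higher, against 5.23% of all genes. Csf2, the growth factor GM-CSF that alveolar macrophages need, was at 0.81, 0.69, 0.90 and 0.92 in controls and at 1.60, 1.45 and 2.42 after 54 µg (0.99, SE 0.25, adjusted p 0.289). Csf2rb, which encodes the beta chain of its receptor, and the related gene Csf2rb2 differed by 0.59 and 0.63 (adjusted p 0.283 and 0.252). Il1b was at 0.59 to 2.23 in controls and at 1.55 to 2.72 in treated animals (0.71, adjusted p 0.690), and the groups overlapped. The other 10 cytokines on the list, among them Csf3 and Il1a, did not pass the filter and gave no value. In the interferon response list 25 of 25 genes had a value above 0 and 3 separated the groups, against 5.3% of all genes. Against 5.23% of all genes, an unadjusted p under 0.05 was reached by 1 of them. This was Cxcl10, a ligand of CXCR3, at -1.42 to -0.73 in controls and at -0.01, 0.27 and 0.34 in treated animals (1.39, SE 0.37, adjusted p 0.332). The median of that list was 0.27. Csf2 differed by 1.04 (adjusted p 0.520) and Cxcl10 by 1.63 (0.331) without the muscle arrays.

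Ly6i belongs to a family of lipid-anchored surface proteins of myeloid and lymphoid cells. Its level was 0.24, 0.27, 0.50 and 0.19 in controls and 2.03, 2.20 and 3.68 in treated animals. Treated animal 3 again stood apart, and the rise of 2.34 (SE 0.41, adjusted p 0.0204) had an adjusted p of 0.557 without it. It also missed the threshold without control animal 1, 2 or 4 (0.0694 to 0.0827), and the difference was 2.70 without the muscle arrays (adjusted p 0.0791). Ly6f, a close relative of Ly6i with which probes may share signal, differed by 2.10 (SE 0.42, adjusted p 0.0818). Of the 8 Ly6 genes tested, 4 had an unadjusted p under 0.05, all higher, against 5.23% of all genes. The others were at -0.45 to 0.32.

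Noxo1, Il4i1 and Ch25h encode a subunit and 2 enzymes of oxidative and lipid chemistry. Noxo1 is the organiser subunit of the superoxide-producing oxidase Nox1. It was at 0.25, 0.18, 0.72 and 0.48 in controls and at 1.87, 1.86 and 2.97 in treated animals, a rise of 1.82 (SE 0.29, adjusted p 0.00907). Leaving out treated animal 3 gave 1.45 (adjusted p 0.283), and leaving out any 1 of the other 6 kept the call. Il4i1 is a secreted amino acid oxidase of macrophages and dendritic cells. It was at 1.44, 2.51, 1.82 and 2.09 in controls and at 2.58, 3.28 and 3.46 in treated animals, so treated animal 1 lay next to control animal 2. Its rise of 1.14 (SE 0.21, adjusted p 0.0290) was the smallest of the 12 and was lost without control animal 1, 3 or 4 or treated animal 2 or 3 (adjusted p 0.0758 to 0.658). Ch25h makes an oxysterol from cholesterol. It was at 1.42, 0.84, 1.48 and 1.095 in controls and at 2.27, 2.58 and 3.20 in treated animals, a rise of 1.48 (SE 0.27, adjusted p 0.0290). It missed the threshold without control animal 1, 2 or 4 or treated animal 2 or 3 (adjusted p 0.0624 to 0.677). Without the muscle arrays the differences were 2.00 for Noxo1 (adjusted p 0.110), 1.42 for Il4i1 (0.235) and 0.98 for Ch25h (0.632).

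Timp1 encodes a secreted inhibitor of matrix metalloproteinases. It was at -2.47, -2.004, -2.08 and -2.80 in controls and at -0.82, -0.26 and 0.81 in treated animals, a rise of 2.25 (SE 0.37, adjusted p 0.00907). Without treated animal 3 the rise was 1.80 (adjusted p 0.283), without control animal 4 it was 2.09 (0.0589), and without the muscle arrays it was 2.27 (0.294). Of 21 proteases and inhibitors tested, Timp1 alone was called and 7 had an unadjusted p under 0.05, all higher, against 5.23% of all genes. Mmp3 differed by 0.68 (adjusted p 0.656) with overlapping groups, and the other inhibitors Timp2 and Timp3 stood at -0.35 and 0.32.

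Of 22 cell cycle genes tested, 6 had an unadjusted p under 0.05, all higher, against 5.23% of all genes, and the median was -0.07. Mcm2 to Mcm7 encode the helicase that opens DNA for replication, and Pcna its sliding clamp. Mcm3 was at -1.47, -1.33, -1.31 and -1.43 in controls and at -1.04, -0.73 and -0.60 in treated animals (0.60, SE 0.17, adjusted p 0.371). Mcm2 was at -2.60, -2.26, -2.58 and -2.60 in controls and at -2.15, -1.98 and -1.84 in treated animals (0.52, SE 0.14, adjusted p 0.332). In both the groups did not overlap, and the differences without the muscle arrays were 0.46 for Mcm3 (adjusted p 0.638) and 0.42 for Mcm2 (0.638). The 6 members with an unadjusted p under 0.05 were Mcm2, Mcm3, Mcm5, Mcm6, Mcm7 and Pcna, at 0.32 to 0.60. The mitosis genes Ccnb1, Plk1 and Mki67, picked after their values were seen, were at -0.25, -0.18 and -0.09, and none of the list passed the adjusted threshold. With median centring the list median moved from -0.07 to 0.25, and the median of all genes was 0.23 there. Other responses were small. Of 19 cholesterol synthesis genes all 19 had a value above 0, with a median of 0.26 and 4 at an unadjusted p under 0.05. Mvd and Nsdhl, enzymes of that route, differed by 0.56 each (adjusted p 0.389 and 0.448). In the oxidative stress and metal list 2 of 19 were higher and 1 lower at that level, against 5.23% and 2.37% of all genes. Fth1, the ferritin heavy chain, and the metal importer Slc39a14 differed by 0.58 and 0.57 (adjusted p 0.464 and 0.252), and the metallothionein Mt1 stood at -0.48.

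The 14 marker lists of lung and blood cells held no called member. The neutrophil markers had a median change of -0.08, with 0 of 18 at an unadjusted p under 0.05 and 6 of 18 above 0. Retnlg and Il1r2, the members farthest above 0, differed by 0.78 (adjusted p 0.726) and 0.53 (0.810) with overlapping groups. S100a8, an abundant neutrophil transcript, was at 2.34 to 3.88 in controls and at 2.26 to 3.07 in treated animals, and S100a9 at 6.31 to 7.16 and 6.41 to 7.17, so the groups overlapped. Neither Ly6g nor Ngp, both neutrophil markers, gave a value. The median level of the neutrophil list was 1.11 to 1.41 in controls and 0.94 to 1.32 in treated animals. Alveolar macrophage markers had a median change of -0.13, and Marco, a scavenger receptor of these cells, was at 4.91 to 6.56 in controls and 4.84 to 6.19 in treated animals. Monocyte markers had a median change of 0.13, with 10 of 15 above 0. Against 5.23% of all genes, 3 of them were higher at an unadjusted p under 0.05. The farthest of them, the receptor Cd14 that binds bacterial lipid, differed by 0.93 (SE 0.27, adjusted p 0.389). T cell markers had a median change of 0.27, with 13 of 13 above 0, against 11664 of 23256 over all genes. An unadjusted p under 0.05 was reached by 4 of them. The median level of the list was -0.05 to 0.09 in controls and 0.005, 0.54 and 0.64 in treated animals 1 to 3, so the groups overlapped. Without the muscle arrays the T cell genes Cd3g and Cd8b1 were at -0.20 and 0.32. NK cell markers were likewise above 0 in 11 of 11 (median 0.28), and B and plasma cell markers in 10 of 12 (median 0.27). Club and ciliated cell markers had a median of -0.25, with 13 of 14 below 0. Scgb3a1 and Scgb3a2, secretoglobins of airway cells, were at -1.06 and -0.78 here and at 0.95 and 0.50 without the muscle arrays. Pendrin, encoded by Slc26a4, is an anion exchanger of airway epithelium and had the second largest positive difference among the genes named here. It was at 1.57, 1.73, 2.26 and 2.35 in controls and at 3.48, 4.99 and 5.64 in treated animals (2.73, SE 0.60, adjusted p 0.141), and the groups did not overlap. It differed by 3.19 without the muscle arrays. The rest of its list did not go with it. Of 12 goblet and pendrin genes tested, 6 were above 0 and 6 below, with a median of -0.05. Slc26a4 was the 1 member with an unadjusted p under 0.05, and Bpifa1, another member, was at -1.79.

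The lists of other tissues held no called member. The median levels of the skeletal muscle, cardiac muscle and adipose lists lay below all controls in treated animals 1 and 3. In treated animal 2 they lay within the control range, as did the squamous level in all treated animals. The liver and erythroid lists had median changes of -0.05 and -0.02. The skeletal muscle list had a median change of -2.09 with 16 of 17 genes below 0 and 0 at an unadjusted p under 0.05. Acta1, skeletal actin, was at 2.38, 6.26, 5.07 and 6.85 in controls and at -2.24, 6.15 and -2.39 in treated animals. Ckm, muscle creatine kinase, was at 3.24, 5.44, 4.27 and 6.26 and at 0.56, 5.49 and 0.16. Treated animal 2 lay within the range of the controls for both, and treated animals 1 and 3 below it. The cardiac muscle, adipose and squamous lists had medians of -1.69, -1.80 and -0.48 with 0 members at an unadjusted p under 0.05. Adding the muscle level as a covariate left 12 genes called, 10 of them among the 12, and muscle and squamous levels together 15, which included all 12. Leaving the muscle arrays out gave 7 genes, 3 higher and 4 lower, of which Saa3 alone was among the 12. The other gene with a symbol among these 7 was the clock gene Arntl, at 1.48 (adjusted p 0.00938), which was at -0.28 with all arrays. The part of tissue content in each change was not tested beyond these fits.

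Some slides held arrays of both groups, which could thus be compared within 1 slide. Slides 1 and 4 each held an array of control animal 1 and an array of treated animal 1, slide 3 held control animal 3 and treated animal 2, and slide 5 held control animal 4 and treated animal 3. Slide 2 held control animal 2 and no treated animal of this comparison. For Saa3 the difference within a slide was 2.90, 5.38, 4.17 and 6.28 on slides 1, 3, 4 and 5. For Lcn2 it was 1.08, 1.94, 2.68 and 2.74, and for Noxo1 0.93, 1.14, 2.30 and 2.48. All 12 genes were higher in the treated array on slides 3, 4 and 5. The 12 were called from these same arrays, so this direction is no separate check. On slide 1, 10 of 12 were, with Ccl17 at -0.15 and Ch25h at -0.10. With slide as a block 10 genes were called, 8 of them among the 12, and Ly6i, Il4i1, Ccl17 and Ch25h then had an adjusted p of 0.0552.

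**Figure D4:**
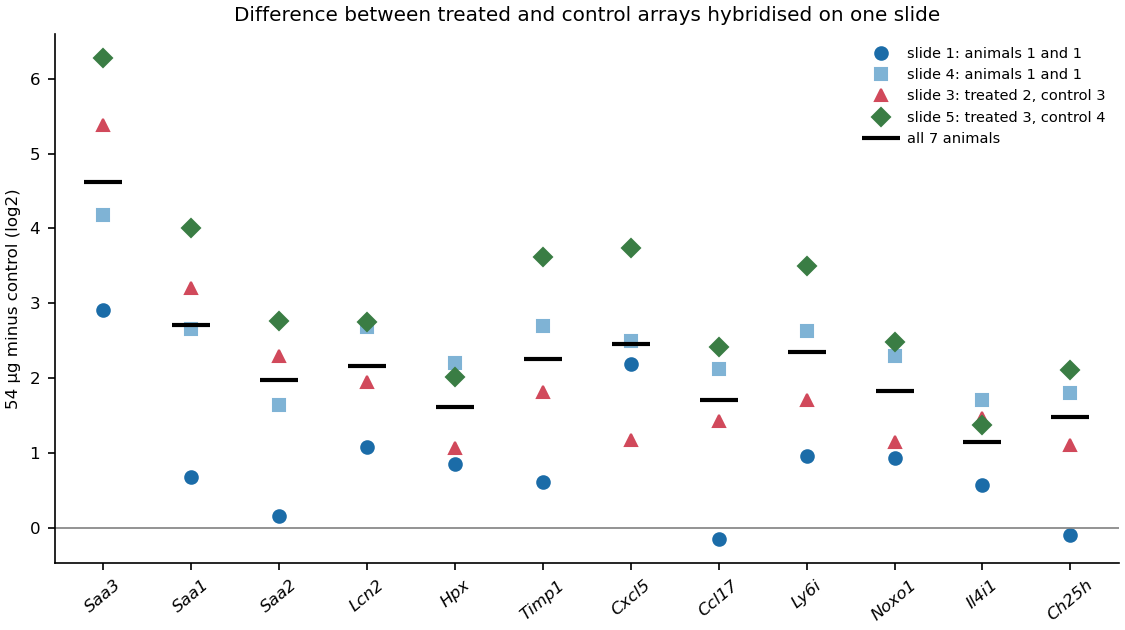
Difference on the log2 scale (y axis) between a treated and a control array on the same slide for the 12 called genes (x axis), by slide; animal 1 of each group appears on slides 1 and 4, and the black bar is the difference over all 7 animals. Slide 1 gives the smallest difference for all genes except Cxcl5, and only Ccl17 and Ch25h fall below 0 there.

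The 2 arrays of an animal did not give equal values for these genes. In treated animal 1 the slide 1 and slide 4 arrays read -0.26 and 2.47 for Saa3, -1.66 and 0.02 for Timp1, and 3.35 and 4.02 for Lcn2. The slide 4 array was higher for all 12 called genes, by 0.65 (Cxcl5) to 2.73 (Saa3). On the slide 1 array Saa1 read 0.21, next to control animal 2 at 0.20. Il4i1 read 2.16 there, below control animal 2 at 2.51. The separation of these genes from the controls thus depended on averaging the 2 arrays. Over all genes the median absolute gap between these arrays was 0.16 and their r was 0.968. In control animal 1 the gap was 0.24 and r was 0.818, and Acta1 read -2.50 on slide 1 and 7.27 on slide 4. RNA was taken from random sections, and the labels do not say whether the 2 arrays shared an extract. With only the slide 1 arrays of the animals with 2, 0 genes were called by limma (808 higher and 469 lower at an unadjusted p under 0.05). With only the slide 4 arrays 25 were called, 11 of them among the 12.

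The other doses at day 1 place the middle dose. Saa3 averaged -2.27 ± 0.93 (SD, n = 4) at 0 µg, -2.72 ± 0.77 (n = 3) at 18 µg, 2.34 ± 1.14 (n = 3) at 54 µg and 4.78 ± 0.77 (n = 4) at 162 µg. Timp1 averaged -2.34 ± 0.37, -2.39 ± 0.23, -0.09 ± 0.83 and 1.51 ± 0.85 at these doses. Noxo1 averaged 0.41 ± 0.24, 0.51 ± 0.21, 2.23 ± 0.64 and 2.25 ± 0.47, and Cxcl5 -3.08 ± 0.32, -3.30 ± 0.38, -0.62 ± 1.25 and -0.67 ± 0.37. Saa3 and Timp1 thus had a higher mean at 162 µg than at 54 µg, while Noxo1 and Cxcl5 had nearly the same mean at both doses. For Cxcl5 the mean at 54 µg took in treated animal 3 at 0.80, against -1.11 and -1.55 in treated animals 1 and 2. The tests below share the 54 µg animals. The 12 genes were called for high values in these same animals, which favours a large step from 18 µg and a small step to 162 µg. Against 18 µg, 4 genes were called (0.0172% of those tested), all higher at 54 µg: Saa3 by 5.06 (SE 0.66, adjusted p 0.00144), Saa1 by 2.90 (SE 0.44), Timp1 by 2.30 (SE 0.39, adjusted p 0.0267) and Saa2 by at least 3.68-fold, since 0 of 4 arrays at 18 µg were well above background. From 54 to 162 µg 1 gene was called (0.0043%), Saa2, which was higher at 162 µg by 2.22 (SE 0.25). The same step was 2.28 for Saa1 (SE 0.41, adjusted p 0.0523), 2.44 for Saa3 (SE 0.61, 0.180), 1.60 for Timp1 (SE 0.37, 0.103), 0.26 for Lcn2 (SE 0.32, adjusted p 1.00), 0.02 for Noxo1 (SE 0.29) and -0.05 for Cxcl5 (SE 0.47). A p that misses the threshold does not show that these levels were equal. The count for this step ranged from 1 to 57 when 1 of the control, 54 µg or 162 µg animals was left out, with 16 genes without control animal 2, 24 without the second and 3 without the third animal at 54 µg, and 57 without the third animal at 162 µg. The count against 18 µg was 1 without the second or the third animal at 54 µg and 2 without the first at 18 µg. Against control, 0 genes were called at 18 µg by limma (505 higher and 445 lower at an unadjusted p under 0.05), and Lcn2 averaged 2.57 ± 0.26 there against 1.78 ± 0.10 in controls.

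At day 28 the same dose gave no called gene against its own controls (704 higher and 726 lower at an unadjusted p under 0.05, limma). Saa3 averaged -3.61 ± 0.09 (SD, n = 3) in day 28 controls and -2.52 ± 0.75 (n = 4) at 54 µg, and Lcn2 1.92 ± 0.26 and 2.30 ± 0.80. The day 28 change minus the day 1 change was -3.53 for Saa3 (SE 0.87), -2.50 for Saa1 (SE 0.58), -1.79 for Lcn2 (SE 0.45) and -1.51 for Noxo1 (SE 0.41), each with an adjusted p of 0.489. For Saa2, 0 of 9 arrays of these groups at day 28 were well above background. No gene passed this test of the difference between days (954 higher and 1417 lower at an unadjusted p under 0.05). The estimate was below 0 for all 12 genes, but these were chosen for a high day 1 change, which the estimate subtracts. Its sign for them was therefore favoured by the choice and is no separate result.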

How the data were processed

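Lung RNA of 29 mice was measured on 36 arrays with 2 colours on 5 slides in 3 scanning sessions, with lung in Cy5 and reference in Cy3 and no dye swap. Per the file headers, the authors' scanner files hold spot intensity from Agilent Feature Extraction 11.0.1.1. These intensities were used before any normalization. The authors also deposited a table of log2 ratios (which correlated with Cy5 over Cy3 at r of 0.986 to 0.997 per array, column medians -0.0388 to -0.0175), whose exact processing is not given in the sources used here and which served as an alternative. Median spot and background intensities were corrected with normexp (offset 50) and normalized within arrays by loess in limma 3.58.1 (R 4.3.3). Control spots and outlier flags were left out, and no spot of the 9 arrays was saturated. The arrays of 1 animal were averaged, and each gene was represented by its probe of highest mean signal. Names came from the files, updated through RefSeq tables. Of 36799 genes, 23256 were well above background in at least 3 animals of a group and were tested, 15199 of them with a symbol. One limma model over all groups (21 residual degrees of freedom) gave each contrast, with Benjamini-Hochberg adjustment over all genes tested. Replicates were separate animals. Gene lists and comparison were chosen with earlier results of these data known. The genes named are those called, the 2 members of each list with the largest change, a fixed set of markers and genes named earlier for this contrast, and, chosen after their values were seen, Serpina3n, Itih4, Cp, Hp, Fga, Fgb, Hamp, Timp2, Timp3, Mcm5, Mcm6, Mcm7, Pcna, Ccnb1, Plk1, Mki67, Mt1 and Arntl. Promoter windows are from RefSeq (GRCm38.p6). The number of arrays limits the precision. Alternatives covered signals, scaling, filter, blocks, covariates, weights and left-out animals or arrays, and the fit was tested on simulated data.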

Additional observations from a re-analysis of the deposited data

Results flagged for a closer look

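In the control group, which is the one with 4 animals, 4 of 76 named genes had an animal set apart from the rest by Dixon's criterion, and chance sets apart about 1 in 20 groups. All 4 were in control animal 2, whose array was the only one of both groups on slide 2. Its level was 1.468 for Icam1, below the other controls, and 1.065 for Csf2rb, above them. For the replication helicase gene Mcm2 it was -2.265, above the others, and for the metal importer Slc39a14 -2.017, below them.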

How the results depend on the processing

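Over 25 alternatives, 2 of them added after seeing the data (one array of each animal with 2), the 12 called genes kept their direction wherever a fit gave a value (Saa2 and Cxcl5 gave none under the strict filter), with 201 values on the same side of the threshold and 97 short of it. No paired analysis was possible because replicate numbers were given in accession order and pair no animals, while pairing by slide is the slide block given here. The count of 12 for 54 µg against control became 21 with median centring, 80 with array quality weights (65 higher, 15 lower), 25 with only slide 4 arrays, 7 without muscle arrays, 2 with a 162 µg animal of conflicting day labels placed in day 1, and 0 with only the 7 animals in the fit (917 higher, 751 lower at an unadjusted p under 0.05) or only slide 1 arrays; leaving out 1 animal gave 2 to 10. For 162 against 54 µg the count of 1 became 0 with processed signals, the strict filter or the relabelled animal, 2 with median centring or the mean of probes, 109 with animal as a random block, 93 with slide and 81 with session as a block, 28 with either covariate fit, 81 without muscle arrays, 991 with weights and 5 with slide 1 arrays, and 1 to 57 without 1 control, 54 or 162 µg animal. For 54 against 18 µg the count of 4 became 11 with median centring, 10 with weights, 9 with slide 4 arrays, 1 without muscle arrays, 0 with slide 1 arrays or the relabelled animal, and 1 to 4 without 1 control, 54 or 18 µg animal. The difference between days gave 1 with median centring or slide 4 arrays, 18 without muscle arrays, 2465 with weights, and 0 to 1 without 1 control or 54 µg animal of either day. Leaving out animals at 18 and 162 µg and at day 28 was added after seeing the data. Without muscle arrays the sign turned for Bpifa1 (0.33), Cfd (0.70), Fabp4 (0.86), Lum (0.15), Mcpt4 (0.0490), Scgb3a1 (0.95), Scgb3a2 (0.50), Col1a1 (0.13), Itgal (-0.0278), Ccr7 (-0.10), Zbtb16 (-0.0764) and Cd3g (-0.20). It turned for Col1a1 with median centring (0.00930) and for Il1r2 with weights (-0.77) and without treated animal 2 (leaving out 1 animal gave -0.0750 to 1.07). None of these genes was called. Arntl, named above and below 0 with all arrays, also turned without muscle arrays (1.48). The cause was not tested. Array weights give unequal trust to animals of 1 group, and without muscle arrays 1 control animal is left, assumed to vary like the other groups. Arrays of 1 animal were no more alike than those of different animals (correlation -0.03).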
